A study of Mus musculus with 6 samples.

Results

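The RNA of histone genes was examined in mouse embryonic stem (ES) cells electroporated with a Chd1 short hairpin RNA (shRNA) vector, set against cells given a control vector. All probes of an Illumina bead array were taken whose platform gene symbol begins with H1f, H2ac, H2bc, H3c or H4c, or with the older Hist1h to Hist4h names. This gave 89 of 45281 probes, for 59 of the 19057 genes named on the array: 11 probes of 9 H1 genes, 23 of 16 H2A genes, 18 of 13 H2B genes, 18 of 9 H3 genes and 19 of 12 H4 genes. The rule uses gene symbols and no measured value, and it was set with earlier results of these data known.

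Pairs of H2A, H2B, H3 and H4 form the protein core of the nucleosome, and linker histone H1 binds where DNA enters and leaves it. Most of the genes are intronless, lie in clusters and are transcribed as DNA is replicated, and their mRNAs end in a stem-loop bound by the protein SLBP where other mRNAs carry a poly(A) tail. Chd1 encodes an ATP-dependent remodeller that assembles and spaces nucleosomes and binds histone H3 methylated at lysine 4. The kit that made the labelled cRNA starts from poly(A) tails, so for these genes the arrays read mainly the polyadenylated share of the transcripts.

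Both groups were ES cells grown in 15% serum with leukemia inhibitory factor over mouse embryonic fibroblasts inactivated by mitomycin C. One group received the pHYPER vector with the Chd1 shRNA (3 arrays) and the other a control vector (3 arrays). The labels do not say what the control vector expresses, or whether the samples of a group were separate cultures, so p-values measure only the spread between these samples, which may be technical. Both groups were put under puromycin 24 h after electroporation, for 48 h, and the labels name no step that removed the feeder cells. All 6 arrays lay on 1 chip, and each group took neighbouring positions of its own, so an effect of chip position cannot be told apart from that of the shRNA.

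Values below are background-corrected, quantile-normalized log2 intensities, and a difference is Chd1 shRNA minus control with a limma test over all 16018 probes detected on at least 3 of 6 arrays. The targeted transcript was lower: probe ILMN_1258834 of Chd1 read 5.96, 5.95 and 5.29 on Chd1 shRNA arrays 1, 2 and 3, against 7.70, 8.81 and 6.91 on control arrays 1, 2 and 3 (exact two-sided permutation p = 0.1, the smallest that 3 arrays against 3 allow). The next 2 Chd1 probes differed by -1.92 and -1.15 on the log2 scale, and the fourth, near background, by -0.11. The ES cell markers were present, with all 10 genes of the list tested. The feeder fibroblast markers were present too, 19 of 25 genes tested, and 26 of their 28 tested probes had positive differences (median 0.77). Their intensity, summed over these probes on the linear normalized scale, was 13680 to 28110 on Chd1 shRNA arrays and 7545 to 21160 on control arrays. Among the 3 Chd1 shRNA arrays it was lowest on array 1, and among the 3 control arrays it was highest on array 3, and Col1a2, Col5a2 and Postn of that list were detected on no array. The part of feeder cells in the histone values was not tested, and fewer cells of a type cannot be told apart from less RNA per cell.

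Of the 89 histone probes, 64 passed the detection filter, for 46 genes, and 58 of those were detected on all 6 arrays. The other 25 comprised 15 detected on no array and 10 detected on 1 or 2 arrays. Among genes with no tested probe were H1f6 and H1f7, linker histones of the testis, H1f8, the linker histone of the oocyte, and H2ac1 and H2bc1, the testis forms of H2A and H2B. The replication-dependent linker histone genes H1f3 and H1f4 were not tested either, and they were detected on no array. H2bc8, an H2B gene, was detected on 2 of 3 Chd1 shRNA arrays and 0 of 3 control arrays and was not tested. Its normalized values were 4.63, 5.36 and 5.22, against 4.68, 4.69 and 4.68, so Chd1 shRNA array 1 lay below every control array. With control values raised to the lowest detected level of their array, the Chd1 shRNA mean was 1.18-fold higher. That ratio of means has no error estimate and is no lower bound. Many histone genes are near-identical copies, and which copies a probe reads was not analysed here, so a value stands for the probe named and perhaps for its relatives.

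No histone probe passed an adjusted p of 0.05 by limma, where 0 of all 16018 probes passed (0%); the smallest adjusted p of a histone probe was 0.240. At an unadjusted p under 0.05, 8 of 64 histone probes were called (12.5%), against 10.4% of all probes. Of these, 7 were higher in Chd1 shRNA arrays, where 4.71% of all probes were, and 1 was lower, where 5.7% of all probes were. The groups did not overlap for 7 histone probes (10.9%), against 15.5% of all probes: 5 with every Chd1 shRNA array above every control array (6.92% of all probes) and 2 with every one below (8.58%). Over both directions the called share lies near the background. By direction, the 7 of 64 called higher are a larger share than that of all probes and the 1 of 64 called lower a smaller one, in counts that depend on the arrays kept. H1f2 and H4c6 each gave more than 1 of the 7. With 1 probe per gene, 5 of 46 histone probes were called higher, where 4.6% of all 11600 probes were. The classes differed in the sign of most values. The number called higher was 22 without Chd1 shRNA array 1, where 7.8% of all probes were, and 11 without control array 3, where 8.91% were. It was 3 without control array 1 (3.51% of all probes), and 2 without Chd1 shRNA array 2 (2.4%) or 3 (2.75%). The number called lower was 9 without control array 3, where 7.87% of all probes were.

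**Figure D1:**
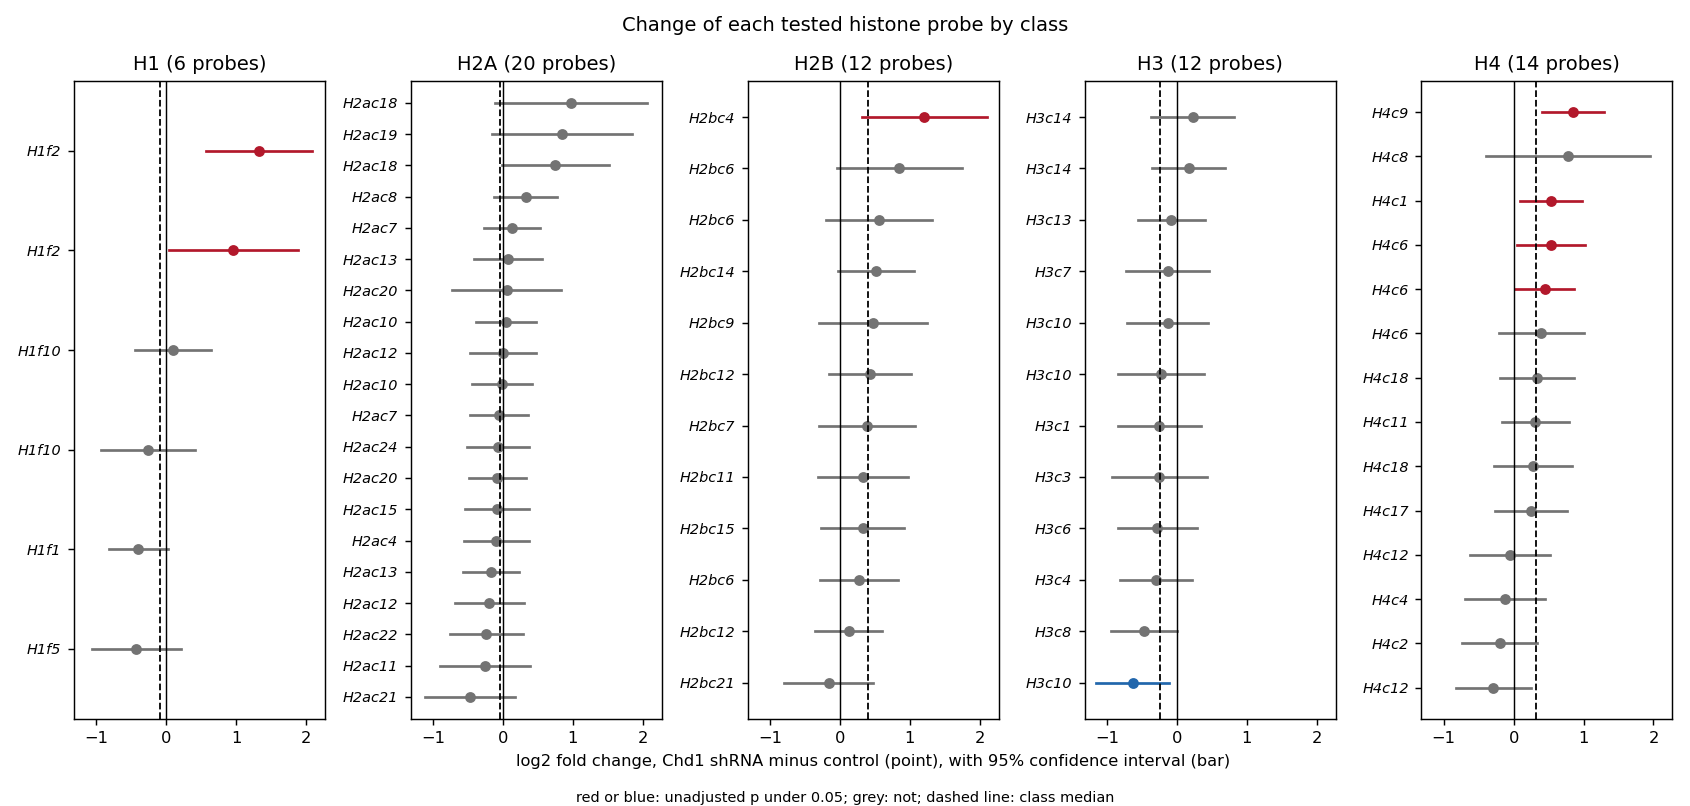
Log2 fold change (Chd1 shRNA minus control, horizontal axis) of the 64 tested histone probes, 1 panel per class, with bars for the 95% confidence interval; red and blue mark an unadjusted p under 0.05 and the dashed line is the class median. H2B values lie to the right of 0 for 11 of 12 probes, and H3 values to the left for 10 of 12.

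By class, the median difference was 0.41 for H2B (11 of 12 tested probes positive), 0.33 for H4 (10 of 14 positive), -0.04 for H2A (9 of 20 positive), -0.08 for H1 (3 of 6 positive) and -0.24 for H3 (2 of 12 positive). Over all probes tested the median was 0.0036, and 50.5% were positive. The class medians are descriptions without a test. Median scaling in place of quantile normalization moved the median of all probes to 0.21, and then put 12 of 12 H2B and 7 of 12 H3 probes above 0; relative to that shift H2B (median 0.68) stayed above it and H3 (0.06) below it.

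Sequences upstream of 1 gene per class are shown first, to give the promoter motifs by which the classes are known. RefSeq tables of build GRCm38.p6 held a promoter window for 54 of the 59 genes. In the 250 bases before each gene's start, 4 motifs were searched on both strands: the TATA box TATAAA, the CCAAT box, the octamer ATTTGCAT known from H2B promoters, and the H1 box AAACACAA known from H1 promoters. Matches are in capitals, and none overlaps another in the windows shown. The windows are chr13:23738557-23738806 (+ strand) for H1f2, chr3:96245247-96245496 (+ strand) for H2ac18, chr13:23574208-23574457 (- strand) for H2bc7, chr13:21717378-21717627 (+ strand) for H3c10 and chr13:22041363-22041612 (- strand) for H4c9, each written 5′ to 3′ along the gene.
H1f2: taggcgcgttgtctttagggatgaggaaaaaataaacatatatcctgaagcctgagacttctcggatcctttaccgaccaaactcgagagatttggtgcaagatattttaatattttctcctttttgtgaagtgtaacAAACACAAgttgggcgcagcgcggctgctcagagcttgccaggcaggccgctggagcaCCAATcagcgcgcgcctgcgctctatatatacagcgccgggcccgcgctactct
H2ac18: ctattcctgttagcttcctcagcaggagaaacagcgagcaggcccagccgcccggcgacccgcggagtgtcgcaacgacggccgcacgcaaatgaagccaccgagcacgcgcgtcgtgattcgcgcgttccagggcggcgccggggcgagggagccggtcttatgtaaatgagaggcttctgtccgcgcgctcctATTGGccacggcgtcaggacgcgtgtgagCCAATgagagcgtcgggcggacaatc
H2bc7: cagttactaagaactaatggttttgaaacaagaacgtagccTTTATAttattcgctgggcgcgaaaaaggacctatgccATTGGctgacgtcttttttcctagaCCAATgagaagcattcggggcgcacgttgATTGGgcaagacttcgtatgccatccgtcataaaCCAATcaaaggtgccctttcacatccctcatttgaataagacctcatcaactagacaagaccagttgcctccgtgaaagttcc
H3c10: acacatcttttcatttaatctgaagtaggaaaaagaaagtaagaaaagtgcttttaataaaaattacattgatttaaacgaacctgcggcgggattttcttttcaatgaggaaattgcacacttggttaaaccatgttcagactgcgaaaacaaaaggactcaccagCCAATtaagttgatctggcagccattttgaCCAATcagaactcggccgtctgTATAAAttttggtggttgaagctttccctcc
H4c9: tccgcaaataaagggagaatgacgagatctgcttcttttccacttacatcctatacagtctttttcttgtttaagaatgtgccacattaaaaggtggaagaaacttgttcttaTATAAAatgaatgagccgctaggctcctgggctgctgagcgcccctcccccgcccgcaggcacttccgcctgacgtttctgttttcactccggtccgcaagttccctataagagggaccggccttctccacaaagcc
The H1f2 window holds the H1 box, from 112 to 105 bases upstream of the start, and a CCAAT box from 54 to 50 bases upstream. In H3c10 a TATA box lies from 31 to 26 bases upstream, and CCAAT boxes begin 83 and 53 bases upstream. H2bc7 holds no exact octamer, 4 CCAAT boxes, 2 on each strand, and the letters TATAAA on the other strand, far from the start. H4c9 holds no CCAAT box and the letters TATAAA from 137 to 132 bases upstream, and H2ac18 holds a CCAAT box on each strand. Only exact letters were searched. Variants, such as tataag nearer the H4c9 start and tatata nearer the H1f2 start, were therefore not marked.

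The CCAAT box was found in 11 of 11 H2B, 16 of 16 H2A, 6 of 7 H3, 7 of 9 H1 and 3 of 11 H4 windows, against 33.8% of all 32851 promoter windows of that length. The octamer was found in 6 of 11 H2B and 6 of 16 H2A windows and in no H1, H3 or H4 window, against 1.6% of all windows. In 6 cases the windows of an H2A and an H2B gene overlapped, so 1 site may be counted in both classes. The H1 box was found in 4 of 9 H1, 1 of 16 H2A and 1 of 11 H2B windows, against 1.67% of all. The TATA box was found in 6 of 11 H2B, 7 of 16 H2A, 2 of 7 H3, 4 of 9 H1 and 6 of 11 H4 windows, 25 of 54 in all (46.3%), against 12.4% of all windows. A match describes exact letters in a window and shows no bound factor, and variants of a motif were not counted.

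Among linker histones, H1f2, which encodes a replication-dependent H1 subtype of most tissues, gave the largest difference of any histone probe. Its probe ILMN_2855315 read 9.80, 10.55 and 10.49 on Chd1 shRNA arrays 1, 2 and 3, against 8.30, 8.98 and 9.57 on control arrays 1, 2 and 3. Every Chd1 shRNA array was above every control array, by 1.33 on average (SE 0.33), a 2.51-fold higher level, with an unadjusted p of 0.0032 and an adjusted p of 0.271 by limma. The other H1f2 probe, ILMN_2774537, read 9.20, 10.56 and 10.12, against 8.35, 8.93 and 9.71. Here Chd1 shRNA array 1 lay below control array 3, so the groups overlapped, and the difference was 0.96 (SE 0.41, adjusted p = 0.474 by limma). On both probes Chd1 shRNA array 1 was the lowest of its group and control array 3 the highest of its own, as in the feeder marker sums. The other 2 arrays of each group stood in the reverse order in those sums.

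The other H1 genes did not share this pattern. H1f5, another replication-dependent subtype, read 5.08, 5.19 and 5.23 in Chd1 shRNA arrays, against 5.90, 5.97 and 4.91 in control arrays. Control arrays 1 and 2 were the highest of the 6 and control array 3 the lowest, with a difference of -0.43 (SE 0.28, adjusted p = 0.595 by limma). H1f1 was detected on 0 of 3 Chd1 shRNA arrays and 3 of 3 control arrays. It read 4.77, 4.42 and 4.68 against 5.22, 4.94 and 4.91. The difference was -0.40 (SE 0.19, adjusted p = 0.495 by limma), with a confidence interval from -0.82 to 0.02 that included 0. With Chd1 shRNA values raised to the lowest detected level of their array, the Chd1 shRNA mean was 1.20-fold lower. That ratio of means has no error estimate and is no lower bound. The groups did not overlap, at values near background. H1f10, the replication-independent linker histone H1X, differed by 0.10 (SE 0.24) on ILMN_1247646 and by -0.26 (SE 0.30) on ILMN_3122845, both within the spread of the arrays.

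**Figure D2:**
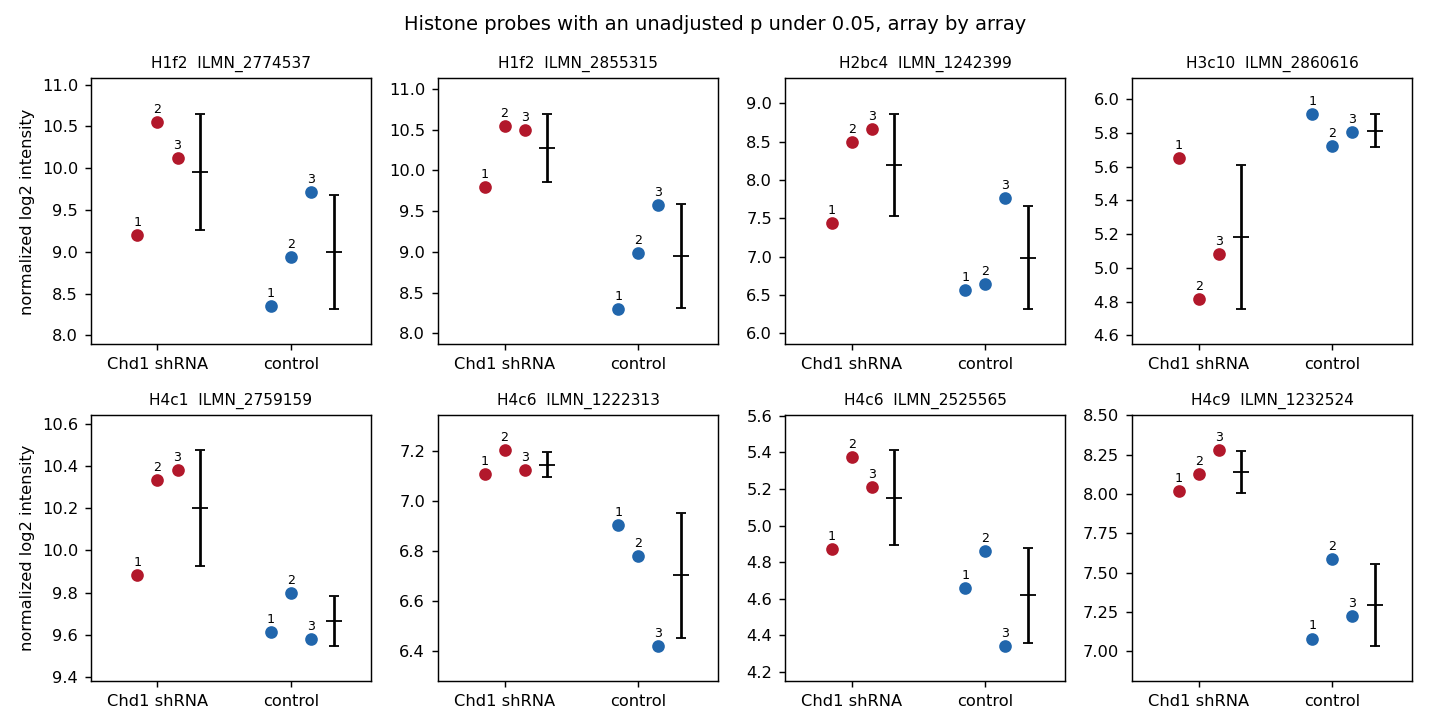
Normalized log2 intensity (vertical axis) of the 8 histone probes with an unadjusted p under 0.05 on each array, numbered by replicate, with mean and SD (n = 3 each) in black. The groups do not overlap in H4c9, H4c1, both H4c6 probes, H3c10 and 1 of the H1f2 probes, whereas in H2bc4 and the other H1f2 probe replicate 1 of the Chd1 shRNA group and replicate 3 of the control group cross.

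Among H4 genes, whose transcripts encode the most conserved core histone, H4c9 had the smallest p of all histone probes. It read 8.02, 8.13 and 8.28 on Chd1 shRNA arrays, against 7.08, 7.59 and 7.22 on control arrays. The groups did not overlap, and the difference was 0.84 (SE 0.20), a 1.80-fold higher level, with an unadjusted p of 0.0019 and an adjusted p of 0.240 by limma. Unlike in H1f2, control array 3 was not the highest control. Over all alternatives tried the difference ran from 0.59 to 1.16, with adjusted p between 0.111 and 0.797.

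H4c1 read 9.88, 10.33 and 10.38 in Chd1 shRNA arrays, against 9.61, 9.80 and 9.58 in control arrays, a difference of 0.54 (SE 0.20, adjusted p = 0.413 by limma) without overlap. H4c6 was read by 3 probes: ILMN_1222313 gave 7.11, 7.20 and 7.12 against 6.91, 6.78 and 6.42, and ILMN_2525565 gave 4.87, 5.38 and 5.21 against 4.66, 4.86 and 4.34. On both the groups did not overlap, with differences of 0.44 (SE 0.19) and 0.53 (SE 0.21), the second detected on 1 of 3 control arrays only. The third, ILMN_1230265, overlapped, with a difference of 0.40 (SE 0.27). H4c8 differed by 0.78 with a wide error (SE 0.52): 7.64, 8.90 and 9.17 in Chd1 shRNA arrays, against 6.91, 7.59 and 8.86 in control arrays. Control array 3 lay above Chd1 shRNA array 1 there, close to array 2. H4c11 had 8.51, 9.06 and 9.11, against 8.43, 8.69 and 8.62, a difference of 0.31 (SE 0.21) with overlap. H4c12 gave negative values on both of its probes, -0.05 (SE 0.25) and -0.29 (SE 0.24), inside the spread of the arrays.

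Among H2B genes, H2bc4 had the largest difference. Its probe ILMN_1242399 read 7.43, 8.49 and 8.67 in Chd1 shRNA arrays, against 6.56, 6.64 and 7.76 in control arrays. The difference was 1.21 (SE 0.40), a 2.31-fold higher level (unadjusted p of 0.0138, adjusted p = 0.382 by limma), and control array 3 lay above Chd1 shRNA array 1. A second H2bc4 probe was detected on no array. The 3 tested probes of H2bc6 had differences of 0.85 (SE 0.40), 0.56 (SE 0.33) and 0.27 (SE 0.25). The brightest of them, ILMN_2742592, read 9.41, 10.62 and 10.54, against 9.28, 9.64 and 9.98. H2bc7 read 9.90, 10.82 and 10.82 in Chd1 shRNA arrays, against 9.68, 10.19 and 10.51 in control arrays, a difference of 0.39 (SE 0.30, adjusted p = 0.650 by limma).

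The H2B probes shared an order of arrays. On 11 of 12, Chd1 shRNA arrays 2 and 3 both lay above every control array, while Chd1 shRNA array 1 lay above every control array on 0 of 12. The groups of 3 arrays thus overlapped on every H2B probe. Arrays 2 and 3 also lay above every control array on 9 of 14 H4, 2 of 20 H2A, 2 of 6 H1 and 0 of 12 H3 probes. They did so on 16 of 28 feeder fibroblast probes, and the share over all probes was not counted. The class median relative to the 6-array mean was -0.37, 0.43 and 0.53 on Chd1 shRNA arrays 1, 2 and 3, and -0.49, -0.20 and 0.11 on control arrays 1, 2 and 3. The feeder fibroblast markers ordered the Chd1 shRNA arrays and set control array 3 first among controls in the same way, at -0.24, 0.46 and 0.83 against -0.71, -0.83 and 0.33, and their part in the H2B values was not tested. Without Chd1 shRNA array 1 the H2B median was 0.66, and without Chd1 shRNA array 2 or 3 it was 0.27 or 0.23; the H4 median was 0.19 without Chd1 shRNA array 3 and 0.20 without control array 3. H2bc21, of the cluster on chromosome 3, was the tested H2B probe with a negative value, -0.16 (SE 0.28).

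**Figure D3:**
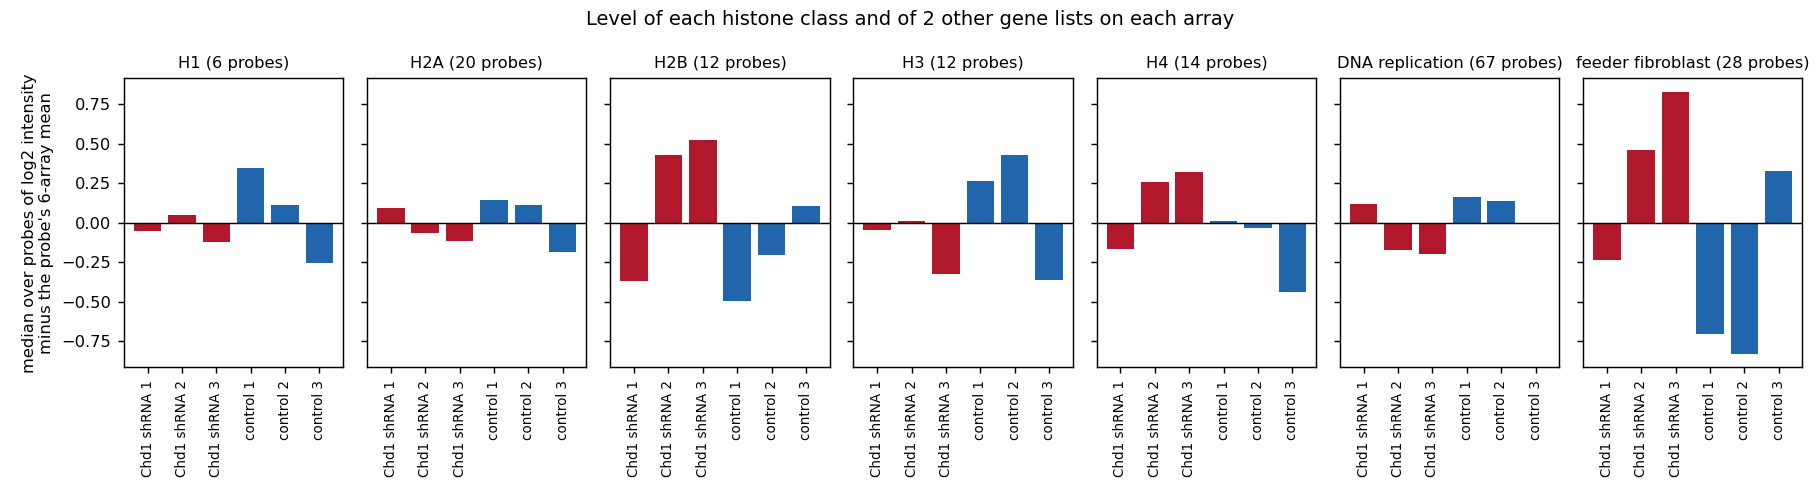
Median over the tested probes of each set of the log2 intensity minus the probe's 6-array mean (vertical axis), 1 bar per array, red for Chd1 shRNA and blue for control, for the 5 histone classes, DNA replication genes and feeder fibroblast markers. H2B is highest on Chd1 shRNA arrays 2 and 3 (0.43 and 0.53), and H3 on control arrays 1 and 2 (0.27 and 0.43).

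H3 genes, which encode the histone whose methylated tail Chd1 binds, had mostly negative values. Probe ILMN_2860616 of H3c10 read 5.65, 4.82 and 5.08 in Chd1 shRNA arrays, against 5.91, 5.72 and 5.80 in control arrays. These values lie near background: the lowest value of a detected probe was 4.76 on Chd1 shRNA array 2. The groups did not overlap, and the difference was -0.63 (SE 0.23), with an unadjusted p of 0.0239 and an adjusted p of 0.413 by limma. The other H3c10 probes, ILMN_2592253 and ILMN_2698519, both brighter, differed by -0.13 (SE 0.26) and -0.23 (SE 0.27) with overlap. H3c8, also near background, read 5.31, 5.12 and 5.05, against 5.94, 5.65 and 5.29. Its difference was -0.47 (SE 0.21, adjusted p = 0.482 by limma), and control array 3 lay just below Chd1 shRNA array 1. H3c4 differed by -0.30 (SE 0.23) and H3c6 by -0.28 (SE 0.25). H3c14 was the gene with positive values, 0.23 and 0.17 on its tested probes, both below their SE of 0.26 and 0.23.

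Within the H3 class the control arrays differed among themselves as much as the groups did. Control array 3 was the lowest control on 10 of 12 probes and the lowest of all 6 arrays on 7. This was not particular to H3. Control array 3 was also the lowest control on 15 of 20 H2A, 11 of 14 H4, 4 of 6 H1 and 3 of 12 H2B probes. It was so on 45 of 67 DNA replication probes too, and the share over all probes was not counted. The H3 class median relative to the 6-array mean was -0.05, 0.01 and -0.33 on Chd1 shRNA arrays 1, 2 and 3, and 0.27, 0.43 and -0.36 on control arrays 1, 2 and 3. The median difference was -0.51 without control array 3, -0.05 without control array 2, -0.10 without control array 1 and -0.11 without Chd1 shRNA array 3, so its size rested on which arrays of both groups were kept.

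Most H2A probes read nearly the same level in both groups. The gene H2ac24 had 14.95, 14.67 and 14.49 in Chd1 shRNA arrays, against 14.86, 14.89 and 14.57 in control arrays, a difference of -0.07 with a 95% confidence interval from -0.51 to 0.37. H2ac20 gave 14.36, 14.25 and 14.19, against 14.49, 14.43 and 14.13, on ILMN_1218380, with an interval from -0.49 to 0.32. Deposited intensities of H2ac24 were 24810 to 31665 in Chd1 shRNA arrays and 20693 to 33970 in control arrays, where the highest value of any probe was 32926 to 39939 on an array, and whether the scanner was near its limit there was not tested. A second H2ac20 probe, detected on 4 of 6 arrays, differed by 0.05 (SE 0.35).

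The exceptions were H2ac18 and H2ac19, neighbouring near-identical H2A genes on chromosome 3. H2ac18 read 8.20, 8.90 and 9.48 on ILMN_1231053 in Chd1 shRNA arrays, against 7.16, 7.47 and 9.01 in control arrays. The difference of 0.98 (SE 0.48) came with an adjusted p of 0.509 by limma, and control array 3 stood above Chd1 shRNA arrays 1 and 2. A second probe gave 0.75 (SE 0.34), and H2ac19 gave 8.48, 9.17 and 9.60, against 7.44, 8.07 and 9.23, a difference of 0.84 (SE 0.44). Since the copies are nearly the same, these probes may read 1 pool of transcripts. At the other end, H2ac21 of the same chromosome differed by -0.47 (SE 0.28).

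**Figure D4:**
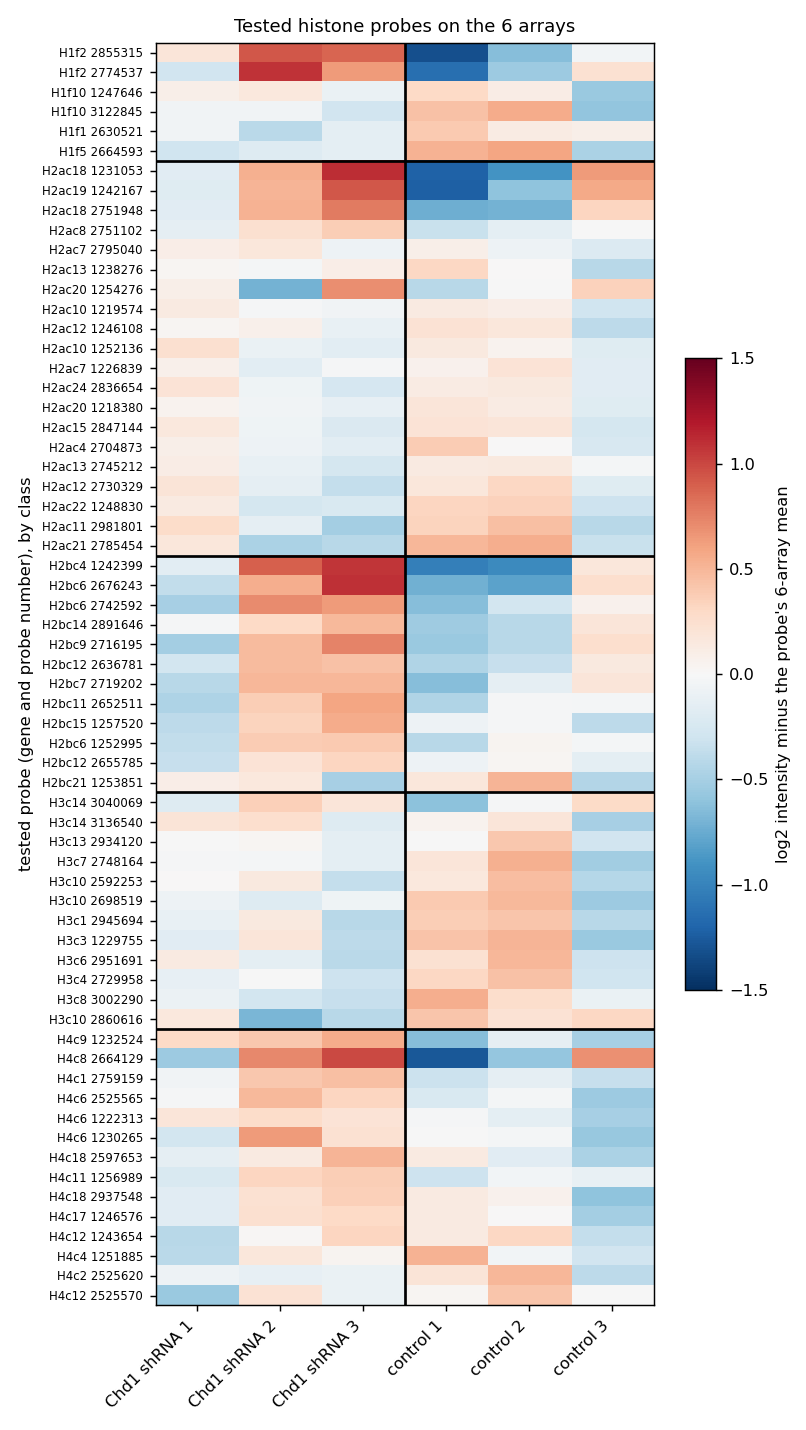
Log2 intensity minus the probe's 6-array mean (colour) for the 64 tested histone probes (rows, by class and then by fold change) on the 3 Chd1 shRNA arrays (left) and the 3 control arrays (right). H2ac18, H2ac19, H2bc4 and H4c8 are low on control arrays 1 and 2 and higher on control array 3, whereas H3 rows are high on control arrays 1 and 2 and mostly low on control array 3.

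H2A and H2B genes often stand head to head and start from a common promoter. In 6 cases the promoter windows of an H2A and an H2B gene overlapped, all on opposite strands, and in 4 of these both genes were tested. H2bc11 differed by 0.33 (SE 0.28) and its partner H2ac11 by -0.25 (SE 0.28). H2bc15 differed by 0.33 (SE 0.26) and H2ac15 by -0.09 (SE 0.20). H2bc7 differed by 0.39, and the 2 probes of H2ac7 by -0.06 and 0.13. The probes of H2bc12 differed by 0.43 and 0.13, and those of H2ac12 by 0.00 and -0.19. In 4 of 4 pairs the mean over probes was higher for the H2B than for the H2A gene. No probe of these pairs had an unadjusted p under 0.05, and the difference between partners was not tested.

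**Figure D5:**
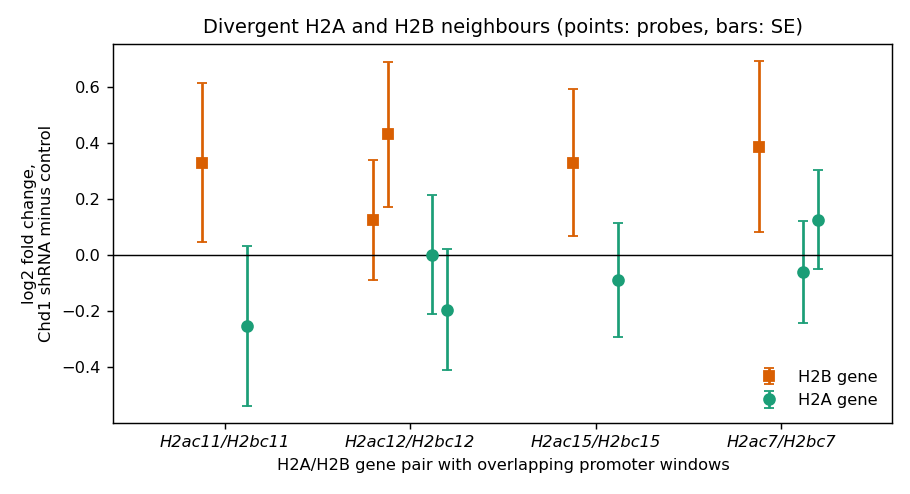
Log2 fold change (Chd1 shRNA minus control, vertical axis) of tested probes for the 4 divergent H2A/H2B gene pairs whose promoter windows overlap, with SE bars. The H2B squares lie above 0 in all 4 pairs, and the H2A circles lie on both sides of 0 or below it.

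By chromosome the signs were mixed. Of the 64 tested probes, 52 belong to genes of the chromosome 13 clusters, with 28 positive and 24 negative values and a median of 0.06, and 10 to chromosome 3, with 6 positive and 4 negative values and a median of 0.11. All 8 probes with an unadjusted p under 0.05 were of chromosome 13 genes. Where a gene had several tested probes (15 genes), their signs were the same in 9 and mixed in 6.

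Histone variant genes outside the symbol rule, Cenpa and H2ax among them, gave 14 tested probes with a median difference of 0.03. At an unadjusted p under 0.05, 0 were called lower (5.7% of all probes) and 1 higher (4.71%). That was ILMN_1247199 of Macroh2a1, a large H2A variant of silent chromatin, at 6.01, 7.19 and 6.90 against 4.72, 5.06 and 6.78, a difference of 1.19 (SE 0.51), while the gene's 2 other tested probes had -0.17 and -0.27. The next largest was H3f3a, which encodes the replacement histone H3.3, with 0.39 (SE 0.25) on 1 of its 2 probes and 0.03 on the other.

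Genes that transcribe, process or degrade histone mRNA gave 29 tested probes with a median of -0.04. At an unadjusted p under 0.05, 1 was called higher (4.71% of all probes) and 1 lower (5.7%). Cpsf2, a subunit of the complex that cuts histone and polyadenylated pre-mRNAs, differed by -0.54 (SE 0.19). Its probe lay near background and was detected on 2 of 3 Chd1 shRNA arrays. Sympk, the scaffold of that complex, differed by 0.47 (SE 0.20). The stem-loop binding protein gene Slbp, read by ILMN_2736826, and the histone transcription coactivator gene Npat were detected on no array. Nor were Snrpe of this list and Ccna2 and Pola1 of the DNA replication list. Whether the probes of these genes work was not tested, so their RNA cannot be called absent. DNA replication genes, which are active in the same phase of the cell cycle, had negative values on 59 of 67 tested probes with a median of -0.22. Of the 67, 8 were called lower, where 5.7% of all probes were, and 0 higher, where 4.71% were. E2f2, a transcription factor of that phase, differed by -0.83 (SE 0.31) on 1 of its 2 tested probes, both dim, and by -0.47 (SE 0.33) on the other. Mcm10, an initiation factor, differed by -0.82 (SE 0.24) on the dimmest of its 3 tested probes. On its brighter probes it differed by -0.19 (SE 0.18) and -0.22 (SE 0.20). In the feeder list 9 of 28 tested probes were called higher, where 4.71% of all probes were, and 1 lower, where 5.7% were. The matrix genes Dcn and Lox of that list had 1.45 (SE 0.49) and 1.30 (SE 0.52), each on its probe of largest difference. The ES cell list was mixed, with 5 positive and 10 negative values over 15 tested probes, a median of -0.06 and a range from -0.79 to 0.28. Of these 15 probes, 0 were called higher (4.71% of all probes) and 3 lower (5.7%). The 2 largest differences of the list were those of the transcription factor genes Sox2, -0.79 (SE 0.32), and Zfp42, -0.78 (SE 0.27).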

How the data were processed

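Chd1 shRNA and control RNA (3 arrays each) was hybridised to bead arrays. The deposited table holds a linear, unnormalized intensity and a detection p-value per probe, per the file headers; GenomeStudio was used per the submitters' processing notes. The authors' other deposited table gives processed intensities, by a method that the labels do not state. Deposited intensities were background-corrected with nec (offset 16), quantile-normalized and log2 transformed (limma 3.58.1, R 4.3.3). Quantile normalization removes shifts of a whole array, and the offset shrinks dim differences. The 16018 probes detected (p under 0.05) on 3 or more arrays were fitted with lmFit and eBayes, with Benjamini-Hochberg adjustment over all of them. SEs, intervals and p-values of single probes come from this fit. The fit was tested on simulated data.

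The platform annotation names 1 gene for 34885 probes, and all 89 histone symbols were the same in RefSeq's GRCm38.p6 table, which also gave chromosomes. Members and the 5 side lists were chosen with earlier results of these data known. Named in each class were the 3 probes of largest change, the 2 brightest, those with an unadjusted p under 0.05 and other tested probes of these genes, and from each side list the 2 genes of largest change. H1f1, H1f10, H2bc8, H2bc21, H3c14, H4c12, H2ac21 and the divergent pairs were named after their values were seen. Alternatives were an offset of 50, no background correction, median and 75th percentile scaling, the authors' table, no filter, detection on all 6 arrays, trended robust variance, array weights, 1 probe per gene, and leaving out each array.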

Additional observations from a re-analysis of the deposited data

How the results depend on the processing

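No histone probe passed an adjusted p of 0.05 under any of the 16 alternatives. Histone probes higher at an unadjusted p under 0.05 numbered 18 with median scaling (12.8% of all probes) and 16 with array weights (10% of all probes), against 7 (4.71%), and between 2 and 22 when 1 array was left out (2.4% to 8.91%). Those lower numbered 0 with median scaling (1.19% of all probes), no background correction (6.29%), the authors' processed table (6.3%) or 1 probe per gene (6.33%), 2 with detection on all 6 arrays (6.85%), 3 with 75th percentile scaling (5.28%), 4 with no detection filter (4.11%) and 5 with array weights (9.46%), against 1 (5.7%), and between 0 and 9 when 1 array was left out (3.22% to 7.87%). Over all probes, 31 passed the adjusted threshold with a trended robust variance, 1 with median scaling and 1 with array weights, against 0. Median scaling, which moved the median of all probes to 0.21, moved the class medians of H1, H2A and H4 to 0.20, 0.13 and 0.59. With 1 probe per gene, which leaves fewer probes, that of H1 was -0.33. Leaving out 1 array gave medians from -0.31 to 0.08 for H1, -0.17 to 0.03 for H2A, 0.23 to 0.66 for H2B, -0.51 to -0.05 for H3 and 0.19 to 0.48 for H4.

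Signs turned for named probes of small difference. With median scaling, all but that of H4c12 below the 0.21 shift of all probes, these were H2ac20 ILMN_1218380 (0.0664), H3c10 ILMN_2592253 (0.101) and ILMN_2698519 (0.063), H1f10 ILMN_3122845 (0.0327), H2bc21 (0.147), H4c12 ILMN_1243654 (0.230), H2ac11 (0.0354), H2ac7 ILMN_1226839 (0.0933), H2ac15 (0.0083) and Chd1 ILMN_2958382 (0.0202). With 75th percentile scaling these were H4c12 ILMN_1243654 (0.0216) and H2ac12 ILMN_1246108 (-0.0724), and with array weights H2ac20 ILMN_1254276 (-0.121) and H2ac12 ILMN_1246108 (-0.0502). Leaving out 1 array gave values from -0.286 to 0.419 for H2ac20 ILMN_1254276, -0.193 to 0.0364 for H2ac24, -0.162 to 0.0253 for H2ac7 ILMN_1226839, -0.195 to 0.114 for H2ac12 ILMN_1246108, -0.241 to 0.0013 for H2ac15, -0.0038 to 0.328 for H2bc12 ILMN_2655785, -0.375 to 0.0655 for H3c10 ILMN_2592253, -0.157 to 0.274 for H1f10 ILMN_1247646, -0.417 to 0.0578 for H2bc21, -0.0255 to 0.430 for H3c14 ILMN_3040069, -0.0301 to 0.311 for H3c14 ILMN_3136540, -0.245 to 0.145 for H4c12 ILMN_1243654 and -0.269 to 0.0959 for Chd1 ILMN_2958382. The 8 histone probes with an unadjusted p under 0.05 kept their sign in every alternative that tested them. No paired analysis was possible because the labels give no replicate numbers. With 3 arrays a group precision is low, and least for probes near background.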
